A study of Rattus norvegicus with 6 samples.

Results

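The array carried 382 microRNA genes among the 22093 genes that a single-symbol probe set represents, and they are described here in rat liver, first by brightness and then by paternal treatment. They were taken by symbol, as every gene named Mir followed by a digit or Mirlet7 with any suffix, and 399 probe sets carried such a symbol alone. Each gene was represented by its brightest probe set over all 6 arrays. The list therefore holds the microRNA genes themselves, not the longer genes that host them, which are treated separately below; 10 members are let-7 genes, and 1 (Mir9-3hg) is named as the host transcript of a microRNA. All animals were adult Sprague Dawley rats on chow, killed fed. STZ-O livers (n = 3) came from offspring of males made hyperglycaemic by intraperitoneal streptozotocin, a toxin of the insulin-producing beta cell, and bred with normal females. CB-O livers (n = 3) came from offspring of citrate buffer-injected males with normal glucose. Each array held the liver of 1 animal, with 1 rat per litter and no separation by sex.

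MicroRNAs are short single-stranded RNAs cut from a hairpin inside a longer primary transcript, by Drosha with Dgcr8 in the nucleus and by Dicer1 in the cytoplasm. Loaded into an Argonaute protein, a microRNA pairs through its seed, bases 2 to 8 from the 5′ end, with messenger RNAs, whose translation and stability are lowered. In liver, miR-122 is the dominant hepatocyte microRNA and is known for its part in cholesterol and triglyceride handling. The arrays were hybridised with labelled cDNA made for whole transcripts, and whether a microRNA probe set read the primary transcript, the hairpin or the mature strand was not tested. In bulk liver, fewer cells of a type and less RNA per cell cannot be told apart. Levels below are log2 values after robust multi-array averaging (RMA), and because probe sets differ in how well they bind, the level of a probe set is not an amount that can be set against that of another.

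The sequences that the results turn on are RefSeq entries (assembly GRCr8), written 5′ to 3′. RefSeq held a hairpin for 343 of the 382 members and at least 1 mature strand for 334 of them. In the mature strands the capitals mark the seed. The liver microRNA, a pair of let-7 strands with their common seed, 2 strands of the miR-15/16 family, and strands of the miR-290 family, which is best known from embryonic stem cells, were these:
miR-122-5p: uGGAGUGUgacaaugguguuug
let-7i-5p: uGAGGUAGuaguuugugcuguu
let-7d-5p: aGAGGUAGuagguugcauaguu
miR-497-5p: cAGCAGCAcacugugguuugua
miR-195-5p: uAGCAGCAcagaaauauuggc
miR-292-5p: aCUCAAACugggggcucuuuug
miR-293-5p: aCUCAAACugugugacacuuu
miR-295-5p: aCUCAAAUguggggcacacuucu
miR-294: cUCAAAAUggaggcccuaucu
In 4 hairpins, shown because level followed base composition, the capitals mark G and C. They are a bright GC-rich hairpin, the liver hairpin, a bright hairpin of repeated bases and the dimmest member:
Mir762: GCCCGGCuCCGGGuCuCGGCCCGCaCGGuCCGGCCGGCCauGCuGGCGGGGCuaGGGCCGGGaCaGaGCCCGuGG
Mir122: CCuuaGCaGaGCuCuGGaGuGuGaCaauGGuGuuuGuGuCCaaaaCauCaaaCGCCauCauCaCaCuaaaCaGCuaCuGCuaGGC
Mir297: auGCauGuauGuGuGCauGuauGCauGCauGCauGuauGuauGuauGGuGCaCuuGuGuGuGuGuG
Mir376c: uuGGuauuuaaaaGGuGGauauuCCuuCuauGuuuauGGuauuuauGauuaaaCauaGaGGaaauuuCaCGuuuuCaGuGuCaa

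The microRNA probe sets were about as bright as the probe sets that the array itself labels as negative controls. The members had a median level of 5.43 (quartiles 4.13 and 6.41, range 1.85 to 10.9), against a median of 5.51 over the 1153 negative controls (quartiles 4.44 and 6.52) and of 6.57 over all 22093 genes. Of the 382 members, 186 (48.7%) exceeded the negative control median, compared with 75.9% of all genes. Only 4 members (1.05%) exceeded the 95th percentile of the negative controls, at 8.26, compared with 13.2% of all genes. The share of the negative controls themselves, 5.03%, is fixed by that cut-off. These controls ranged from 1.54 to 12.7, so the percentile does not mark a floor of no signal. On all 6 arrays, 2 members (Mir544 and Mir210) stood over that percentile. Within single arrays, 3 members passed it in each of the 3 STZ-O livers, and 5, 4 and 7 members in the CB-O livers. The member median was 5.41, 5.42 and 5.44 in STZ-O livers, against 5.52, 5.39 and 5.47 in CB-O livers, so it overlapped between groups. The liver itself was plainly seen: 6 of 7 hepatocyte markers lay over the same percentile, with albumin (Alb) at a mean of 13.2, and the mean over the 7 lay between 11.1 and 11.4 on every array.

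**Figure D1:**
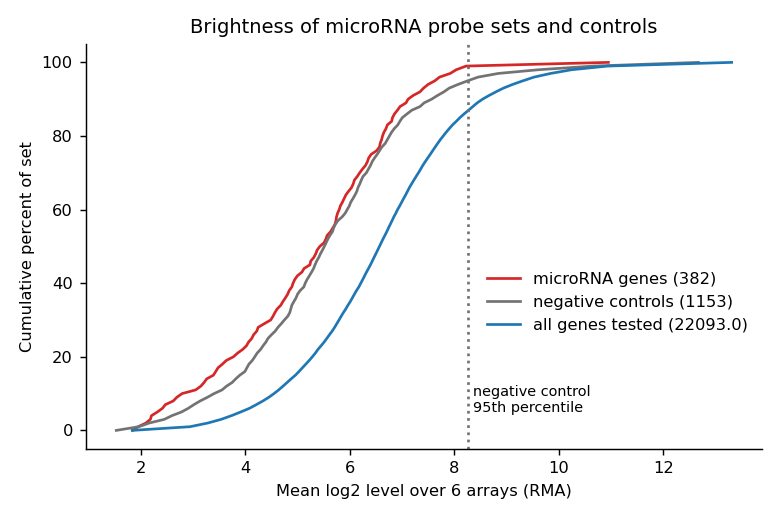
Cumulative percent of the microRNA genes, the negative control probe sets and all genes against their mean log2 level over 6 arrays. The curve of the microRNA genes (median 5.43) crosses its midpoint near that of the negative controls (median 5.51) and left of all genes (median 6.57), and 4 of 382 pass the negative control 95th percentile of 8.26.

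The members over the 95th percentile were Mir544, Mir210, Mir3542 and Mir505. Mir544 was at 10.78, 10.91 and 11.16 in STZ-O livers, against 10.94, 10.95 and 10.94 in CB-O livers. Its other probe set was far dimmer, with a mean of 3.95. The bright one has the identifier TC0700003735 and the dim one TC0600001544, while RefSeq places the gene on chromosome 6. In 376 of the 379 members that could be compared, the chromosome written in the probe set identifier was that of RefSeq; the other 3 were Mir544, Mir325 and Mir193b, and which locus their bright set reads was not tested.

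Mir210, the microRNA best known for its induction in low oxygen, was at 8.75, 8.80 and 8.65 in STZ-O livers, against 9.02, 8.66 and 8.81 in CB-O livers. Mir3542 was at 8.56, 8.54 and 8.15 in STZ-O livers, against 8.73, 8.48 and 8.51 in CB-O livers. A further probe set, which carries both Ddx41 and Mir3542, had a mean of 8.13, under the percentile, and differed by -0.18. Mir505 varied more, at 7.65, 7.86 and 9.07 in STZ-O livers, against 8.75, 8.30 and 8.59 in CB-O livers, with STZ-O replicate 3 standing apart. In all 4 the groups overlapped.

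Just under the percentile lay Mir211 (mean 8.19), which sits in the melanocyte gene Trpm1, Mir139 (8.14), which sits in the phosphodiesterase gene Pde2a, and Mir762 (8.08). The next brightest were Mir877 (8.04), Mir297 (8.03), Mir346 (7.95), Mir484 (7.95) and Mir465 (7.94), which completes the 12 brightest. Mir122 came directly after them in rank, at 7.66, 8.24 and 8.21 in STZ-O livers, against 7.82, 8.18 and 7.24 in CB-O livers. The liver microRNA was thus brighter than most members, yet under the 95th percentile, and its groups overlapped.

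Brightness followed base composition. Across the 343 members with a hairpin, level correlated with the hairpin's share of G and C at a Pearson r of 0.669 and a Spearman rho of 0.670, and with hairpin length at a rho of 0.080; these are descriptions across genes that share 6 arrays. Members with under 40% G and C (n = 40) had a median level of 3.17 and 4 of them passed the negative control median. The median was 4.64 at 40 to 50% (39 of 140 passed), 5.86 at 50 to 60% (80 of 123 passed) and 6.78 at 60% or more (39 of 40 passed). The array's own background probe sets, 23 sets of 25-base probes sorted by their number of G and C, stood at 2.06 with 40% G and C, 4.94 with 60% and 7.10 with 80%.

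To set each member against that background, the background levels were averaged over all 25-base windows of its hairpin by their number of G and C; this measure was chosen after the levels had been seen, and the probes actually used are not known here. Members lay a median of 1.83 above this composition-matched background (quartiles 1.07 and 2.57). Of the 343, 72 (21.0%) were within 1 log2 unit of it, 271 were over 1 above and 48 over 3 above, and none was over 1 below. Ranked this way the order changed. Mir762, with 81.3% G and C, was only 0.90 above its background, while Mir297 was 5.87 above, Mir466d 5.53, Mir465 5.43 and Mir122 5.42. Mir802, known from mouse liver for its rise in obesity, was 4.70 above and Mir22 was 4.0 above, whereas Mir376c at 0.19 lay at its background.

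**Figure D2:**
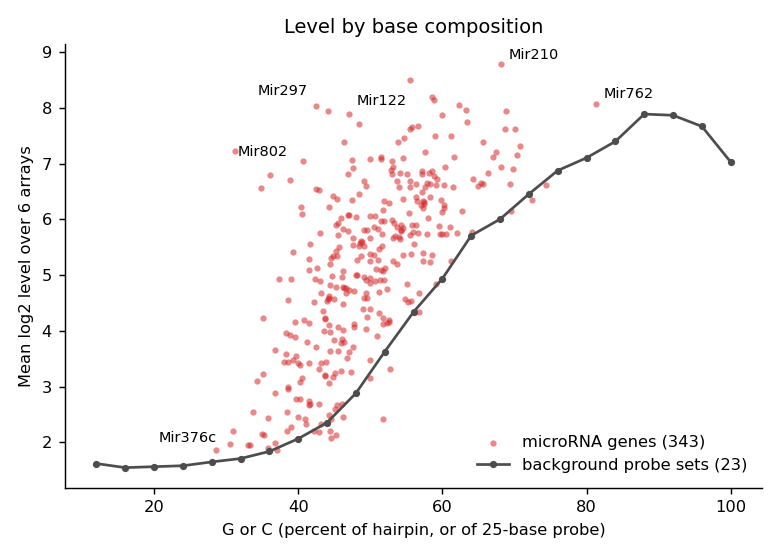
Mean log2 level over 6 arrays against the share of G and C, for 343 microRNA genes by hairpin (points) and for 23 background probe sets by 25-base probe (line). Levels climb with G and C in both, and Mir122 and Mir297 lie far above the line while Mir762 and Mir376c lie near it.

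By paternal treatment, no microRNA gene differed between STZ-O and CB-O livers past the threshold. With limma and Benjamini-Hochberg adjustment over all 22093 genes, 0 members passed an adjusted p of 0.05, as 0 (0%) of all genes did, and the smallest adjusted p of a member was 0.362. At an unadjusted p under 0.05 there were 22 members (5.76%), beside 5.68% of all genes and 5.55% of negative controls. Of them 9 were higher and 13 lower in STZ-O, where 3.2% of all genes were higher and 2.48% lower. Members whose 3 STZ-O arrays lay all above or all below the 3 CB-O arrays numbered 21 (5.50%; 8 higher, 13 lower), against 10.1% of all genes and 10.9% of negative controls. The members' share by p thus lay near the background, and that without overlap below it. Of the 22 at an unadjusted p under 0.05, 16 lay under the negative control median (8.16% of the 196 members there, against 6.42% of the genes there) and 6 over it (3.23% of 186 members, against 5.45% of genes). Groups did not overlap for 6.12% of the members under that median, against 8.79% of the genes there, and for 4.84% of the members over it, against 10.6% of genes.

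The differences were small. The median difference, STZ-O minus CB-O, was -0.016 over members and -0.0037 over all genes, with 167 members higher and 215 lower (56.3% lower, against 51.9% of genes). The median size of a difference was 0.073 log2 units for members, 0.055 for all genes and 0.210 for negative controls. No member differed by over 0.5 on its brightest probe set, compared with 94 genes (0.425%) and 158 negative controls (13.7%). A dimmer probe set of Mir466d, with a mean of 6.28, differed by -0.54, whereas its brightest set differed by 0.01. The dimmer set was at 5.75, 6.16 and 6.12 in STZ-O livers, against 6.69, 6.49 and 6.48 in CB-O livers, without overlap. The median within-group SD was 0.149 for members, 0.0907 for all genes and 0.340 for negative controls.

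**Figure D3:**
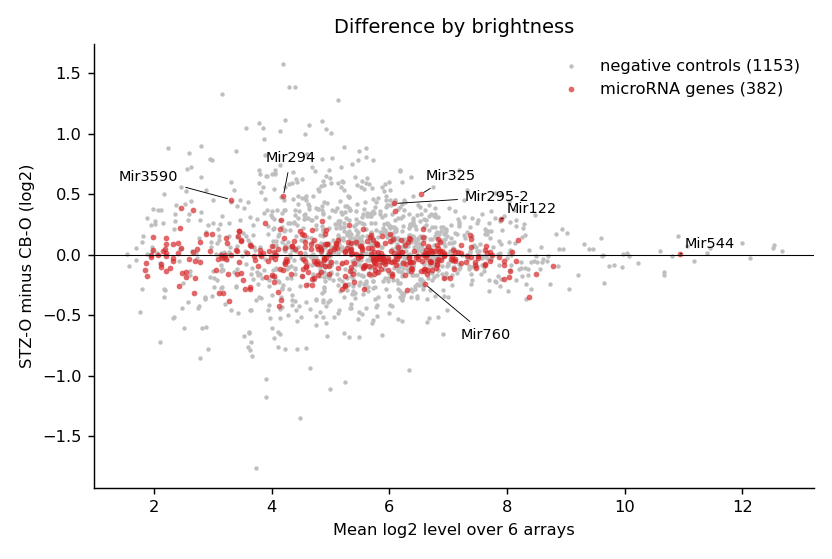
STZ-O minus CB-O difference (log2) against mean level over 6 arrays, for 382 microRNA genes and 1153 negative control probe sets. The members lie between -0.42 and 0.50, while the negative controls range between -1.76 and 1.57.

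Among members over the negative control median, Mir295-2 had the highest moderated t. It was at 6.10, 6.42 and 6.35 in STZ-O livers, against 5.91, 5.82 and 5.88 in CB-O livers. Every STZ-O value exceeded every CB-O value, and the difference was 0.42 ± 0.09 (SE; limma adjusted p = 0.517). The same 6 values also stand in a probe set that carries both Mir295-1 and Mir295-2, so which copy the signal comes from cannot be told. Mir147 was at 6.24, 6.12 and 6.45 in STZ-O livers, against 5.93, 5.92 and 5.87 in CB-O livers, again without overlap, with a difference of 0.36 ± 0.09 (limma adjusted p = 0.614).

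Mir497, of the miR-15/16 family whose members are known to restrain the cell cycle, was at 6.17, 6.09 and 6.04 in STZ-O livers, against 6.01, 5.83 and 5.96 in CB-O livers (0.17 ± 0.07, limma adjusted p = 0.854). The other 5 members with the highest t over that median were Mir3085, Mir3552, Mir6334, Mir6318 and Mir378, with differences of 0.11 to 0.16, and their groups overlapped.

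On the low side Mir760 led. It was at 6.53, 6.46 and 6.46 in STZ-O livers, against 6.74, 6.70 and 6.74 in CB-O livers, with a difference of -0.24 ± 0.05 (limma adjusted p = 0.532). Mir194-2, of the liver and gut microRNA pair miR-192/194, was at 5.63, 5.71 and 5.63 in STZ-O livers, against 5.91, 5.77 and 5.78 in CB-O livers (-0.16 ± 0.06, limma adjusted p = 0.840). In both the groups did not overlap, although Mir194-2 lay only just over the negative control median. Mir3558, Mir758, Mir219a1, Mir665, Mir151b and Mir6332 made up the rest of the 8 lowest, with differences of -0.29 to -0.13; of these, the groups of Mir3558, Mir219a1 and Mir6332 did not overlap.

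The smallest p of all members fell on a dim one. Mir3590 was at 3.52, 3.63 and 3.45 in STZ-O livers, against 2.99, 3.18 and 3.07 in CB-O livers (0.45 ± 0.07, unadjusted p = 0.000328, limma adjusted p = 0.362), all under the negative control median. The greatest difference on a brightest probe set was that of Mir325. It was at 6.20, 6.61 and 7.54 in STZ-O livers, against 6.94, 6.23 and 5.69 in CB-O livers. Its arrays overlapped widely (0.50 ± 0.39, limma adjusted p = 0.962), and its other probe set differed by -0.17.

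**Figure D4:**
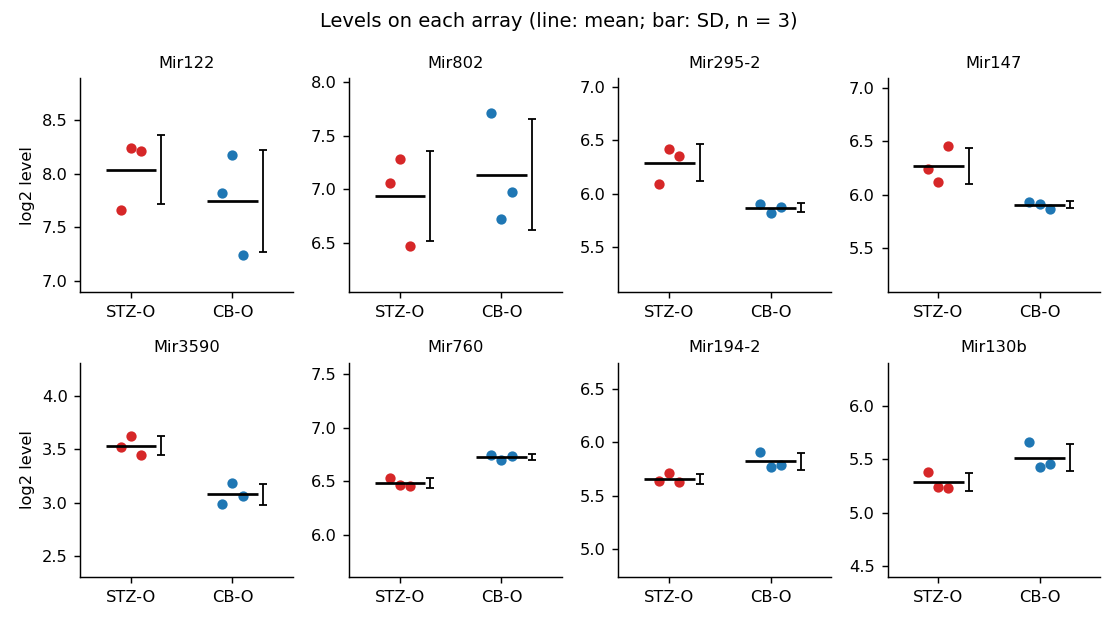
Log2 level on each array for named microRNA genes, STZ-O arrays left of CB-O arrays in each. Lines are means and bars SDs (n = 3). Mir295-2, Mir147, Mir3590, Mir760, Mir194-2 and Mir130b separate by group, while Mir122 and Mir802 overlap.

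Of the 17 liver-linked members, 10 lay over the negative control median, 6 had a higher and 11 a lower mean in STZ-O (median difference -0.052), and 1 (Mir194-2) reached an unadjusted p under 0.05, where 5.68% of all genes did. Mir122 differed by 0.29 ± 0.24 (limma adjusted p = 0.973), and the difference ran between 0.04 (without CB-O replicate 3) and 0.51 when each array was left out in turn. Mir802 was at 7.06, 7.28 and 6.47 in STZ-O livers, against 7.72, 6.72 and 6.97 in CB-O livers (-0.20 ± 0.28, limma adjusted p = 0.988). Mir22 was at 7.36, 7.28 and 7.58 in STZ-O livers, against 7.57, 7.48 and 7.44 in CB-O livers. These 3 were the brightest of the group, and in none of them did the arrays separate by father.

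Of 20 members linked in the literature to lipid and glucose regulation, 8 lay over the negative control median and the mean was higher in STZ-O for 9 and lower for 11 (median difference -0.007). The brightest was Mir26b, at 7.77, 7.79 and 8.02 in STZ-O livers, against 7.77, 7.85 and 8.02 in CB-O livers. Mir33, which lies in the sterol regulator gene Srebf2 and represses cholesterol efflux, had a mean of 5.11, under the negative control median, and differed by 0.05 ± 0.11. Mir29b2 was the sole one of the 20 at an unadjusted p under 0.05 (5.68% of all genes), at 4.17, 3.97 and 3.89 in STZ-O livers, against 3.66, 3.75 and 3.83 in CB-O livers (0.26 ± 0.08, limma adjusted p = 0.785), well under that median. Mir375, a microRNA of pancreatic islets, was at 6.63 on average and differed by -0.16 ± 0.10.

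MicroRNAs that mark other cells were counted the same way. Of the endothelial symbols, Mir126a alone was matched, and RefSeq lists the strand miR-126b for it. It was at 5.83, 5.66 and 5.83 in STZ-O livers, against 5.53, 5.90 and 5.40 in CB-O livers. Of 12 blood and immune members, 2 lay over the negative control median and 4 were higher and 8 lower. Of 5 mesenchymal and stellate members 2 were higher and 3 lower, with 4 over the negative control median. Of 21 members of muscle, neuron and pancreas 13 were higher and 8 lower, with 9 over that median. In these lists, Mir10a (0.38) and Mir133b (-0.17) alone had an unadjusted limma p under 0.05, where 5.68% of all genes did. Both lay under that median. The negative control median was thus passed by 9 of 21 muscle, neuron and pancreas members and by 4 of 5 mesenchymal and stellate ones. It was passed by 10 of 17 liver-linked members and by 48.7% of all members. These are the counts alone and not a test.

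The let-7 genes, known for holding cells in a differentiated state, gave 1 higher and 9 lower of 10, the median being -0.088 (range -0.21 to 0.11); none reached an unadjusted p under 0.05, none had groups that did not overlap, and 3 lay over the negative control median. Mirlet7i, the brightest, was at 6.74, 6.82 and 6.86 in STZ-O livers, against 6.85, 6.76 and 6.94 in CB-O livers. Mirlet7d was at 6.09, 6.08 and 5.73 in STZ-O livers, against 6.04, 6.08 and 6.27 in CB-O livers, where STZ-O replicate 3 was lowest. Of the 10, 9 carry a strand with the let-7 seed in RefSeq, while Mirlet7f-1 is paired there with a strand of another seed. The 10 include Mirlet7f-1os, by its name the opposite-strand entry of Mirlet7f-1. Some of the 10 lie side by side in the genome, so their signs are not independent of one another. Without each array in turn, 7 to 9 of the 10 were lower, and the median was -0.037 when STZ-O replicate 1 was left out, -0.143 when CB-O replicate 3 was and -0.060 when CB-O replicate 1 was.

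Among 461 distinct seeds, 59 were shared by at least 2 members and 8 by at least 4. The 4 members with the seed AGCAGCA (Mir16, Mir195, Mir322 and Mir497) were all higher, by 0.0043 to 0.17, but only 2 of 4 were without CB-O replicate 2 and 3 of 4 without any other single array. The 3 with AGUGCAA (Mir130a, Mir130b and Mir301b) were all lower, by 0.13 to 0.23, as they were without each array in turn, and Mir130b, at 5.38, 5.24 and 5.23 in STZ-O livers, against 5.66, 5.43 and 5.45 in CB-O livers, did not overlap (-0.23 ± 0.08, limma adjusted p = 0.800). The 3 lay under the negative control median. Mir130b and Mir301b lie side by side in the genome, as Mir195 and Mir497 do. The signs within each of these pairs are thus not independent of one another. Other shared seeds also had all members differing the same way. Among them were UAUACAA (5 lower), CUCAAAC and CUUUGGU (3 higher each) and GUGCAAA (3 lower). The UAUACAA genes are Mir98 and let-7 genes already counted above. Those of CUCAAAC (Mir290, Mir292 and Mir293) and GUGCAAA (Mir19a, Mir19b1 and Mir19b2) are counted again in the clusters below. The same signs therefore appear under several headings. Mixed seeds included AUUGCAC (2 higher, 4 lower) and AAAGUGC (2 higher, 3 lower).

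By position, 151 members fell into 48 clusters of genes under 10 kb apart on 1 strand in RefSeq, and in 20 clusters all members differed the same way. Only 9 of the 48 held at least 4 members, and smaller ones often share a sign without any link. The count of 20 is therefore description only and was not tested. The 6 of the miR-290 cluster on chromosome 1 (Mir290, Mir291a, Mir291b, Mir292, Mir293 and Mir294) were all higher in STZ-O, with a median difference of 0.13. Mir294 had the greatest, at 4.07, 4.62 and 4.62 in STZ-O livers, against 3.97, 3.80 and 4.10 in CB-O livers (0.48 ± 0.15, limma adjusted p = 0.772). CB-O replicate 2 was the lowest array for the cluster as a whole, with a mean deviation of -0.283 from each gene's mean, and the groups overlapped in all 6 members. Without that array 4 of 6 were higher and the median was 0.036; 4 of 6 were also higher when STZ-O replicate 2 was left out, and 5 of 6 when CB-O replicate 3 was.

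The 20-member cluster of the imprinted Dlk1-Dio3 domain on chromosome 6, whose microRNAs are expressed from the maternal chromosome, gave 7 higher and 13 lower (median difference -0.059). The X-linked cluster of Mir363, Mir92a2, Mir19b2, Mir20b and Mir106a was lower in all 5, with a median of -0.058; without each array in turn it was lower in 3 to 5 of 5, with medians of -0.134 to -0.021, lowest when STZ-O replicate 1 was left out and highest when CB-O replicate 1 was. The Mir17 to Mir92a1 cluster on chromosome 15 was lower in 5 of 6, with a median of -0.016. None of these members passed the adjusted threshold.

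**Figure D5:**
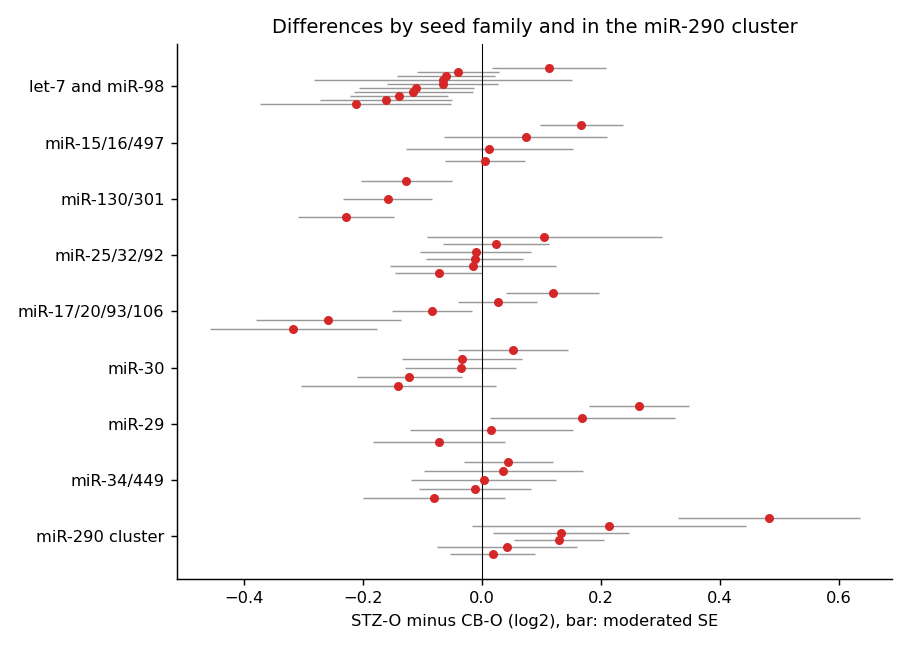
STZ-O minus CB-O difference (log2) of each member by seed family and in the miR-290 cluster, 1 point per gene with its moderated SE as a bar. The 10 genes with the let-7 seed, Mir98 among them, lie below 0 in 9 and the miR-290 cluster above 0 in 6 of 6, with no member past the adjusted threshold.

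In RefSeq 102 members lay inside a longer measured gene on the same strand, giving 103 pairs with 83 host genes. The hosts' probe sets were brighter, with a median level of 7.03 and 13 of 83 over the negative control 95th percentile, while the median was 5.49 for the members inside them and 5.41 for the other 280. Across pairs the levels correlated at a rho of 0.165 and the differences at 0.0054, and 53 of 103 pairs had the same sign, as description only. Pank1, a pantothenate kinase gene that holds Mir107, had a mean level of 9.38 and differed by 0.02, with its microRNA at 6.02 and 0.03. Srebf2 had 8.72 and differed by -0.11, with Mir33 at 5.11 and 0.05.

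Of the 83 hosts, 0 passed the adjusted threshold, and 2 reached an unadjusted p under 0.05 by limma, where 5.68% of all genes did. Ctdspl, a phosphatase gene that holds Mir26a, was at 7.27, 7.38 and 7.16 in STZ-O livers, against 7.08, 6.98 and 7.02 in CB-O livers, without overlap (0.24 ± 0.07, limma adjusted p = 0.690). Mir26a itself differed by 0.03 ± 0.07. The other was Lingo2, which differed by -0.17, also without overlap. It holds Mir873, which differed by -0.06, and Mir876, which differed by 0.20.

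None of the genes that make and load microRNAs passed the adjusted threshold. Of 32 listed, 30 were matched, with levels from 5.69 (Lin28b) to 11.1. All 30 lay over the negative control median, compared with 75.9% of all genes. Of the 30, 13 lay over the negative control 95th percentile, a larger share than the 13.2% of all genes. In STZ-O 17 were higher and 13 lower (median difference 0.017). Ago1, an Argonaute gene, was the sole one of the 30 at an unadjusted p under 0.05 (5.68% of all genes), at 7.71, 7.58 and 7.68 in STZ-O livers, against 7.47, 7.45 and 7.44 in CB-O livers (0.20 ± 0.06, limma adjusted p = 0.687).

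Groups did not overlap for 6 of the 30, where 10.1% of all genes had no overlap. Ago1, Tnrc6a and Tnrc6b, which encode the Argonaute and its GW182 partners in silencing, and Tut4 and Tut7, which add uridines to precursors such as those of let-7, were higher in STZ-O. Dicer1, the enzyme that cuts the hairpin, was lower, at 8.49, 8.41 and 8.50 in STZ-O livers, against 8.57, 8.63 and 8.50 in CB-O livers (-0.10 ± 0.06, limma adjusted p = 0.947), although its highest STZ-O and lowest CB-O value both round to 8.50. After Ago1, the next genes by p on the high side were Tnrc6a, Tut7, Ago4 and Tut4, with log2 differences of 0.14, 0.16, 0.19 and 0.11. After Dicer1, those on the low side were Mettl3, which methylates primary transcripts, Xpo5, which exports the hairpin, Lin28b, which blocks let-7 processing, and Srrt, with log2 differences of -0.10, -0.09, -0.06 and -0.05.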

How the data were processed

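Liver RNA of 6 rats was read on 6 arrays (RTA-1_0). The authors deposited log2 values for 70580 probe sets; Affymetrix Expression Console 1.4.1 and RMA are named per the submitters' processing notes, and RMA evens out brightness between arrays and compresses dim differences. Neither build nor annotation is named in those notes, and positions are left out. Of 68842 transcript probe sets, 23446 had 1 symbol, 505 several and 44891 none here; 44 of the 505 name a microRNA. The brightest set stood for each gene. Of the members, 13 had several probe sets, with identical values in all sets for 4, and 368 had an Entrez identifier found in RefSeq GRCr8.

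STZ-O minus CB-O was tested in limma 3.58.1 (lmFit, eBayes, two-sided, R 4.3.3), adjusted by Benjamini-Hochberg over 22093 genes, with 0.05 as the threshold. The fit was run on simulated data whose shifts were far larger than the difference of any member. That run does not show how often differences of the size seen here would be found. Tables were made with Python 3.11.15, pandas 2.3.3 and SciPy 1.17.1. P-values measure the spread between 3 animals per group, whose number limits precision. Y-linked genes had a mean of 7.36 to 7.54 on all 6 arrays. The brightest of them, Ddx3y, was at 9.22 to 9.67 with no array apart, and the dimmest, Usp9y, at 3.37 to 3.48. The sex of each animal was not tested further. Negative controls gave the background, as the table holds no detection call. Named were the 12 brightest members, 8 members at each end of the moderated t among those over the negative control median, members beside its 95th percentile, and list, host and machinery genes. The members and lists were chosen with earlier results of these data known. Alternatives were the mean over probe sets, quantile normalization, median centring, a filter on dim probe sets, an intensity trend, array weights, a Y-linked covariate, a replicate block and leaving out each array.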

Additional observations from a re-analysis of the deposited data

Results flagged for a closer look

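A further 44 probe sets carry a microRNA symbol together with another symbol and took no part in the comparisons; 35 of them are shared with a gene of another kind. Of these, 7 exceeded the negative control 95th percentile of 8.26, which is the signal that marked them out. Plxnb2 with Mir349 had a mean over 6 arrays of 9.358 and Hnrnpk with Mir7-1 one of 9.198. Vmp1 with Mir21, the most studied microRNA of injured liver, had 9.152, and Zbtb20 with Mir568 had 9.13. Dnaja1 with Mir207 had 9.102, Zfp207 with Mir632 had 8.8 and Nrdc with Mir761 had 8.705. Their differences, STZ-O minus CB-O, lay between -0.027 and 0.087, and how much of each signal comes from the microRNA's own transcript was not tested. The 9 sets shared by microRNAs alone lay between 3.88 and 6.08.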

How the results depend on the processing

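No member passed the adjusted threshold under any of the 14 alternatives, and the smallest adjusted p of a member lay between 0.259 and 0.630 over them. Over 28 named members and these alternatives, 387 of 392 differences kept their direction, and 5 were reversed: Mir544, at 0.0055 with all arrays, was at -0.0052 as a mean over its probe sets, -0.022 with array weights, -0.0062 with the Y-linked covariate and -0.10 without STZ-O replicate 3 (range -0.10 to 0.091 without each array in turn), and Mir139 was at 0.030 without CB-O replicate 3 (range -0.12 to 0.030). With only probe sets above the negative control median, 8 members had an unadjusted p under 0.05 and 9 had groups that did not overlap, as only 186 members entered; over all genes so filtered the shares were 5.95% and 10.6%. Leaving out each array in turn gave 51 to 66 members whose groups did not overlap, because 2 arrays against 3 separate more often (19.3% to 22.8% of all genes). Machinery genes at an unadjusted p under 0.05 numbered 2 of 30 with median centring, 2 with the dim filter and 2 with the Y-linked covariate (5.30%, 5.95% and 6.27% of all genes), and 1 to 3 without each array in turn (over 5% of all genes in each); the cause was not tested. Whether the numbers 1 to 3 in the sample names pair the animals cannot be told from the values. Same-numbered deviations correlated at 0.146, -0.175 and 0.100, and differently numbered ones at -0.225 to 0.130. With a replicate block in limma there were 27 of 382 members at an unadjusted p under 0.05 (5.93% of all genes) and 0 past the adjusted threshold. The counts of families and clusters without each array were chosen after seeing the data. Low brightness limits the members: 196 of 382 members lay under the negative control median. That median does not mark a floor of no signal. Of the 343 members with a hairpin, 271 lay over 1 log2 unit above the composition-matched background, a measure chosen after the levels had been seen.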
